A study of Mus musculus with 10 samples.

Results

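Klf4, Spink4 and Hepacam2 are 3 mouse genes of the intestinal secretory lineage, and their rows were taken by gene name from 2 deposited count tables of 55416 rows each. The tables hold colon RNA of 5 Vista knockout (KO) and 5 wild-type (WT) libraries. Every mouse had drunk 2% dextran sulfate sodium (DSS), which injures the colonic epithelium, for 7 days. Vista, the product of Vsir, is an immune checkpoint protein. KO 1 to 3 and WT 1 to 3 stood in the first table, where the labels call the genotype a VISTA knockdown. KO 4, KO 5, WT 4 and WT 5 stood in the second table, where it is called Vista-/-. Both forms are treated here as KO. The sources used here give no strain, age, allele design or group without DSS, and do not tie the libraries of the second table to animals. The spread that p-values rest on may therefore be partly technical.

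Goblet cells secrete the mucus that separates the colonic epithelium from bacteria, and colitis is known for loss of goblet cells and thinning of mucus. They arise with enteroendocrine and tuft cells from progenitors in which Notch signalling is low and the transcription factor Atoh1 is active. Klf4 encodes a zinc-finger transcription factor needed in mice for the terminal differentiation of colonic goblet cells, and it is also made in surface epithelium. Spink4 encodes a small secreted protease inhibitor of the Kazal type that is typical of goblet cells. Hepacam2 encodes an immunoglobulin-like membrane protein whose transcript marks secretory epithelial cells, including goblet and tuft cells. In whole colon, fewer cells of a type and less RNA per cell cannot be told apart.

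Library totals ran from 3691322 to 4071238 counts. In these tables the row name identifies the transcript only in parts of the genome. Of genes that practically every cell uses, such as those of ribosomal and proteasome proteins, 35 of 36 inside 3 chromosome windows had at least 500 counts over all libraries, against 241 of 870 (27.7%) outside them. The windows are bases 1 to 59904737 of mm10 chromosome 4, bases 1 to 30304539 of chromosome 6, and bases 10446756 to 38078854 of chromosome 15. They hold 527 protein-coding rows. They were set with these counts known, so the contrast describes them and does not test them. The row of Vsir lies outside and had 27 to 97 counts in KO libraries and 0 to 82 in WT libraries, so it does not check the genotype labels. On the first principal component of log2 counts, with 37.6% of the variance, WT 4 (44.4) and WT 5 (48.3) stood apart from the other 8 libraries, which ran from -25.3 to 5.88. KO 4 lay highest on the second component, at 28.7. The closest pair of libraries, WT 2 and WT 3, differed by a mean chi-square per row of 4.06, more than counting noise gives.

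All 3 secretory genes lie in the windows. Klf4 (ENSMUSG00000003032) is on chromosome 4 from 55527143 to 55532466 on the minus strand and Spink4 (ENSMUSG00000028415) from 40920052 to 40931395 on the plus strand. Hepacam2 (ENSMUSG00000044156) is on chromosome 6 from 3457096 to 3498298 on the minus strand. None of the 3 overlaps another annotated gene. Around Klf4, the nearest universally used genes were Rad23b with 28170 counts on one side and Dnajc25 with 1846 on the other. Around Spink4 they were Dnaja1 with 42756 and Chmp5 with 17006 counts. Hepacam2 had such a gene on 1 side only, Vps50, which begins 83 bases away and had 5136 counts, so the name of Hepacam2 is bracketed on fewer sides than the other 2.

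RefSeq start sites matched 2 of the 3 genes, Klf4 and Hepacam2. The RefSeq start of Hepacam2 lies inside the gene bounds given above, downstream of their 5′ end, and that of Klf4 lies just upstream of its bounds. The 250 bases before each start (GRCm38.p6, minus strand, written 5′ to 3′) are shown as a description of the 2 matched genes. Their balance gave the largest genotype difference of the 6 ratios tested below, which did not pass after adjustment. Capitals mark CCGCCC or its reverse complement GGGCGG, the GC box that Sp and KLF factors are known to bind.
Klf4, chr4:55532476-55532725: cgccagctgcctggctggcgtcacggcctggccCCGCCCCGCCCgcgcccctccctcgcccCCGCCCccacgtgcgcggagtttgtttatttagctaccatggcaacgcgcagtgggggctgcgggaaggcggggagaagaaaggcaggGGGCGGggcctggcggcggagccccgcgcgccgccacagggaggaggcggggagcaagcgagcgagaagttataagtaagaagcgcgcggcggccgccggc
Hepacam2, chr6:3494499-3494748: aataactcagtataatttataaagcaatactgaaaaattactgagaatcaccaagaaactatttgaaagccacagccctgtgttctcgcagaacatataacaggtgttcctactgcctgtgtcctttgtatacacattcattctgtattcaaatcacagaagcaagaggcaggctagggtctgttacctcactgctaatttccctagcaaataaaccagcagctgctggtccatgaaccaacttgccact

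The Klf4 window holds 4 such matches, of which the first and second share 1 base, and the Hepacam2 window holds 0. Of 32851 RefSeq promoter windows, whatever their share of G and C, 32.7% hold at least 1 match. The Klf4 window is 74.0% G and C and the Hepacam2 window 40.4%, where the median over all windows is 52.4%. The CACCC box, the other sequence known to bind KLF factors, occurs on neither strand of these windows and in 52.0% of all windows. These are descriptions of the letters, and no binding was measured.

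In DSS-treated colon all 3 genes were well counted, with 99645 counts for Klf4, 83321 for Spink4 and 13961 for Hepacam2 over the 10 libraries. Levels were compared between genes as CPM, counts scaled to the library total, per kilobase of exon. On that scale Spink4 ranked 1, Klf4 3 and Hepacam2 101 of the 527 protein-coding rows in the windows. Spink4 averaged 4254 ± 1802 CPM per kilobase in KO and 4793 ± 1963 in WT (SD, n = 5 each). Klf4 averaged 899 ± 189 in KO and 795 ± 190 in WT, and Hepacam2 52.2 ± 17.0 in KO and 71.4 ± 12.7 in WT. Per kilobase, Spink4 was above Klf4, and Klf4 above Hepacam2, in 10 of 10 libraries. The exon lengths used were 477 bases for Spink4 and 3049 for Klf4. In CPM without division by length, Klf4 averaged 2741 in KO and 2423 in WT, above Spink4 at 2029 and 2286.

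None of the 3 genes differed between KO and WT colon by edgeR's quasi-likelihood test, which was fitted to all 9736 rows that passed its low-count filter, with the table as a covariate. Of those rows, 5.63% were called at an adjusted p under 0.05, and of the 429 tested rows inside the windows 8.86% were called. The unadjusted p was under 0.05 for 0 of the 3 genes with edgeR, here and in the 3 other edgeR tests below, and DESeq2 and limma voom also called 0. The KO and WT libraries overlapped for each gene over all 10 libraries. They did not overlap in 11.3% of window rows with at least 100 counts, and in 7.24% of all rows with at least 100 counts. The intervals, given next, bound how large a difference these data allow.

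Klf4, the goblet cell transcription factor, stood at 2935, 2886, 3057, 1720 and 3105 CPM in KO 1 to 5, against 3371, 2227, 2446, 2266 and 1804 CPM in WT 1 to 5. Apart from KO 4, the KO libraries lay within a narrow band that only WT 1 exceeded, and KO 4 was below every other library. For KO over WT, edgeR estimated a log2 fold change of 0.21 ± 0.17 (SE), adjusted p 0.476. The fold of 1.15 had a 95% interval of 0.896 to 1.49. Leaving out 1 library gave log2 values between 0.046 without KO 5 and 0.33 without WT 1. Leaving out WT 4, WT 5 and the table covariate gave 0.049. That setting sets KO 4 and KO 5 against first-table WT libraries only, so table and genotype are mixed in it.

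Spink4, the secreted protease inhibitor, stood at 2854, 1795, 2672, 690 and 2136 CPM in KO 1 to 5, against 2481, 2526, 3634, 1442 and 1347 CPM in WT 1 to 5. KO 4 was again the lowest library, and WT 4 and WT 5 came next, below every library of the first table. The log2 fold change was -0.11 ± 0.25 (SE), with an adjusted p of 0.822 in edgeR. The fold of 0.926 had a 95% interval of 0.629 to 1.36. The sign rested on KO 4, without which the log2 value was 0.053. It was -0.44 without KO 5, -0.017 without KO 2 and -0.0029 without WT 3. Without WT 4, WT 5 and the table covariate it was -0.48, where table and genotype are mixed. Spink4 had the widest spread of the 3, with a coefficient of variation of 42.4% among KO and 41.0% among WT libraries. Sampling of reads gives about 1.89% in its lowest library.

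Hepacam2, the membrane protein gene, stood at 321, 328, 329, 142 and 413 CPM in KO 1 to 5, against 348, 365, 509, 491 and 385 CPM in WT 1 to 5. KO 1 to 4 were below every WT library, and KO 5 lay within the WT range. The log2 fold change was -0.43 ± 0.24 (SE), with an unadjusted p of 0.0968 and an adjusted p of 0.299 in edgeR. The fold of 0.743 had a 95% interval of 0.519 to 1.06. Leaving out 1 library kept the sign, with log2 values from -0.66 without KO 5 to -0.22 without KO 4. With no filter on low counts, which left the value at -0.41, the adjusted p in edgeR was 0.0133, and over the other 16 alternatives it ran from 0.0965 to 0.480.

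**Figure D1:**
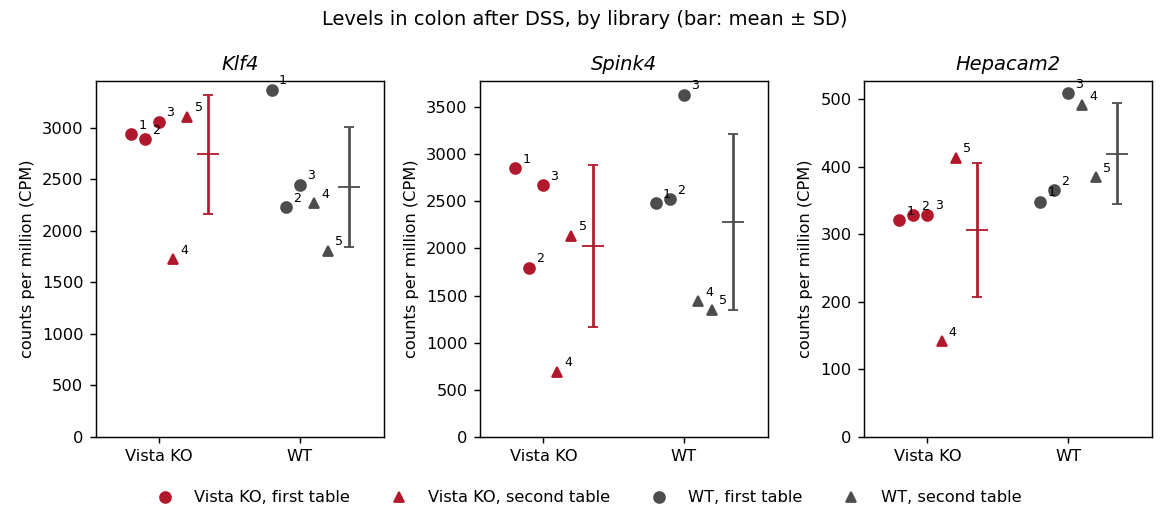
CPM (linear axis from 0) of Klf4, Spink4 and Hepacam2 in each library, Vista KO left and WT right, with library numbers beside the points, circles for the first table and triangles for the second. The bar is the mean ± SD of 5 libraries. KO 4 is the lowest library in each panel, at 1720, 690 and 142 CPM.

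Each table was also tested alone. In the first table, the 3 KO libraries had less Hepacam2 than any of the 3 WT libraries, at 326 ± 4.12 against 407 ± 88.2 CPM (SD, n = 3 each). The log2 fold change was -0.28 ± 0.14 (SE), with an adjusted p of 0.215 in edgeR. Of the window rows with at least 100 counts, 28.4% had every KO library of that table below every WT library. Over all rows with at least 100 counts the share was 17.1%, so such an order was not rare. Without WT 3 the value was -0.096. For Klf4 the first table gave 0.17 ± 0.15 and for Spink4 -0.21 ± 0.18 (SE), with adjusted p values of 0.501 and 0.499 in edgeR. Klf4 was at 0.41 without WT 1, with an adjusted p of 0.0599 in edgeR, at 0.11 without WT 3 and at 0.044 without WT 2. Spink4 was at -0.33 without KO 1, -0.034 without KO 2 and -0.0078 without WT 3. Of 9829 rows tested there, edgeR called 6.06%, and 0 of the 3 genes.

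In the second table, with 2 KO and 2 WT libraries, the log2 fold changes were 0.25 ± 0.31 for Klf4, 0.02 ± 0.50 for Spink4 and -0.65 ± 0.49 for Hepacam2 (SE). Adjusted p values in edgeR were 0.806, 0.991 and 0.644. The KO values were far apart, at 690 CPM of Spink4 in KO 4 and 2136 in KO 5, while WT 4 and WT 5 had 1442 and 1347. Without KO 4 the log2 value of Spink4 was 0.62, and without KO 5 it was -1.02. Hepacam2 was at -0.078 without KO 4 and -1.64 without KO 5, and Klf4 at 0.62 and -0.25. Of 9932 rows, 0.856% were called in this table, and 0 of the 3 genes.

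An interaction term compared the KO effect in one table with that in the other, and edgeR called it in 2.05% of 9736 rows and in 0 of these 3 genes. The second table's log2 fold change minus that of the first was 0.08 ± 0.34 for Klf4, 0.23 ± 0.52 for Spink4 and -0.37 ± 0.47 for Hepacam2 (SE). Adjusted p values were 0.947, 0.891 and 0.786. Leaving out KO 5 put Hepacam2 past the threshold, at -1.37 with an adjusted p of 0.0136 in edgeR, and leaving out KO 4 turned its sign, at 0.21 with 0.716.

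**Figure D2:**
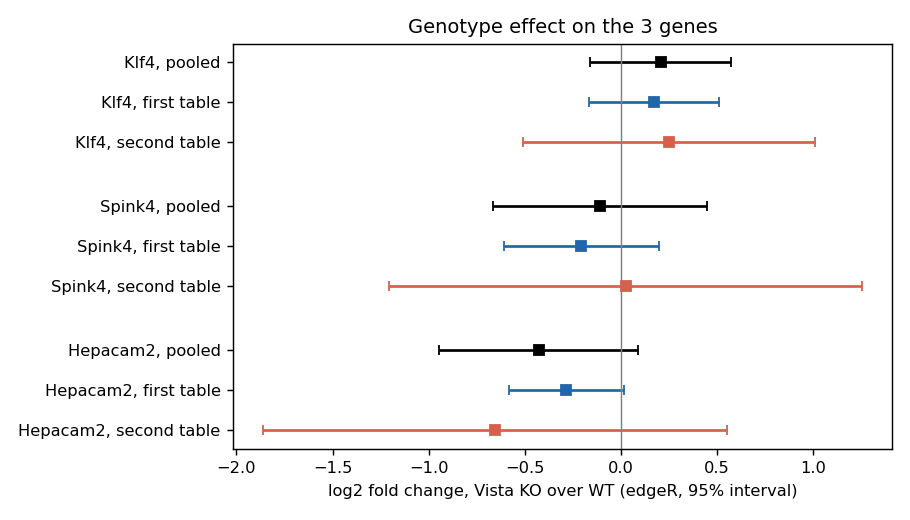
Log2 fold change of Vista KO over WT for each gene, in all 10 libraries with the table as covariate (pooled) and in each table alone. Squares are edgeR estimates and lines their 95% intervals, and each interval crosses 0, the first-table interval of Hepacam2 only just, at 0.016.

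KO 4 had the lowest level of all 3 secretory genes among the 10 libraries. Its log2 difference to the mean of the other 4 KO libraries was -0.80 for Klf4, -1.78 for Spink4 and -1.30 for Hepacam2. Its other epithelial genes did not all share this. Cdh17, an intestinal cadherin gene, was at 3823 CPM in KO 4, above the 3087 to 3638 CPM of the other KO libraries. Esrp1, an epithelial splicing factor gene, was at 1094 CPM, inside their range of 1078 to 1211. Grhl2, an epithelial transcription factor gene, was at 103 CPM, below their 127 to 151. Cftr, the epithelial chloride channel gene, was at 286 CPM, near the low end of their 266 to 525. Summed over 4 epithelial genes with usable names, of 14 listed, KO 4 had 5306 CPM, the highest in a KO range of 4822 to 5306 (WT 5033 to 5682), and Cdh17 made up most of that sum.

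Marker sums of other tissue compartments also lay at an end of the KO range in KO 4. Summed over 6 of 16 listed B cell and other immune genes (Pax5, Bach2, Cd72, Lyn, Ccl19 and Ccl21a), KO 4 had 718 CPM. This was the highest in a KO range of 416 to 718, where WT libraries had 187 to 611. Lyn made up most of that sum, at 465 CPM. Pax5, Bach2 and Cd72 were also above their KO means in KO 4. Ccl19, at 0.741 CPM against a KO mean of 1.31, and Ccl21a, at 0.987 against 5.18, were below. Over 3 of 10 stromal genes KO 4 was highest among KO libraries, at 1270 CPM in a range of 636 to 1270 (WT 739 to 1369). Collagen gene Col1a2 made up most of it, at 1141 CPM, and the stromal gene Sdc2 was at 121 CPM in KO 4, against a KO mean of 135. Over 3 of 10 smooth muscle genes it was lowest, at 965 CPM in a range of 965 to 2104 (WT 1068 to 1875). WT 4 and WT 5 had the lowest immune sums, at 216 and 187 CPM. No listed gene in the windows was at 0 over all libraries, though the chemokine gene Ccl19 had 0 counts in WT 4 and WT 5. The part of these marker levels in the secretory genes' values was not tested.

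**Figure D3:**
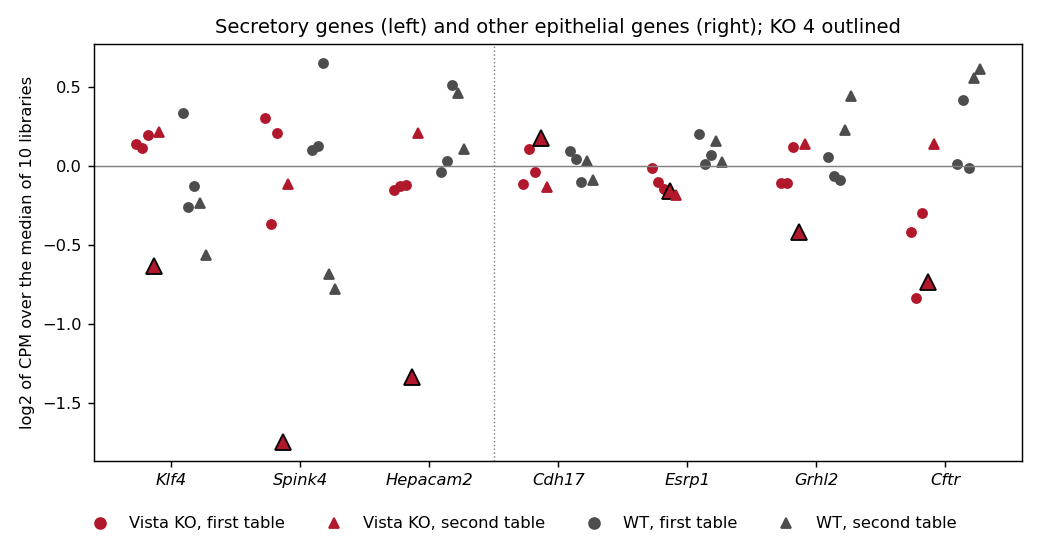
Log2 of each library's CPM over the median of the 10 libraries, for the 3 secretory genes (left of the dotted line) and 4 other epithelial genes (right), with Vista KO left of WT at each gene and KO 4 outlined. KO 4 is the lowest point for Klf4, Spink4, Hepacam2 and Grhl2 and the highest for Cdh17.

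To set the secretory genes against the epithelium rather than the whole library, each was divided by the geometric mean of Cdh17, Esrp1 and Grhl2, and tested by permuting genotype within tables. Together with the 3 ratios between the genes this made 6 ratios, for which 120 arrangements exist and 0.0167 is the smallest two-sided p. Cdh17 averaged 3393 ± 324 CPM in KO and 3372 ± 201 in WT (SD, n = 5 each), with an adjusted p of 0.839 in edgeR. Esrp1 averaged 1126 ± 53.0 in KO and 1307 ± 77.9 in WT (0.191), and Grhl2 132 ± 19.9 and 150 ± 23.8 (0.498). Neither was called, but both were lower in KO on average, which raises ratios to them there. Every KO library had less Esrp1 than every WT library. That order held in 9.7% of window rows with at least 100 counts, and in 4.54% of all rows with at least 100 counts. Per epithelial transcript, the log2 difference of KO minus WT was 0.31 for Klf4 (exact permutation p = 0.133), -0.09 for Spink4 (0.767) and -0.39 for Hepacam2 (0.283). Adjusted over the 6 ratios the exact permutation p values were 0.250, 0.767 and 0.340. None passed, and the KO and WT libraries overlapped in each. Against Cdh17 alone the differences were 0.17, -0.23 and -0.52. Leaving out KO 5 gave 0.17, -0.35 and -0.58, and leaving out KO 4 gave 0.41, 0.13 and -0.12.

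The largest of the 6 was the balance of Klf4 to Hepacam2, compared between genotypes within libraries, where gene length cancels. Its log2 CPM ratio was 3.19, 3.14, 3.22, 3.60 and 2.91 in KO 1 to 5, against 3.28, 2.61, 2.27, 2.21 and 2.23 in WT 1 to 5. WT 1 lay among the KO libraries and the other 4 WT libraries lay below all 5 KO libraries. The difference within tables was 0.70 on the log2 scale, with an exact permutation p of 0.0667 and 0.250 adjusted over the 6 ratios. Without WT 1 it was 0.88, with an unadjusted exact permutation p of 0.0167, where the genotypes no longer overlap by the choice of that library. Over the other 11 alternatives it ran from 0.47 to 0.75.

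The ratios to Spink4 moved less clearly. Klf4 to Spink4 differed by 0.40 and Hepacam2 to Spink4 by -0.29 on the log2 scale, each with an exact permutation p of 0.167 and 0.250 adjusted over the 6 ratios. For Hepacam2 to Spink4 the WT libraries of the tables stood apart. WT 4 and WT 5 were at -1.55 and -1.81, against -2.79 to -2.84 in WT 1 to 3. Without KO 2 its value was -0.44, with an unadjusted exact permutation p of 0.0167. In the first table alone it was -0.056.

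**Figure D4:**
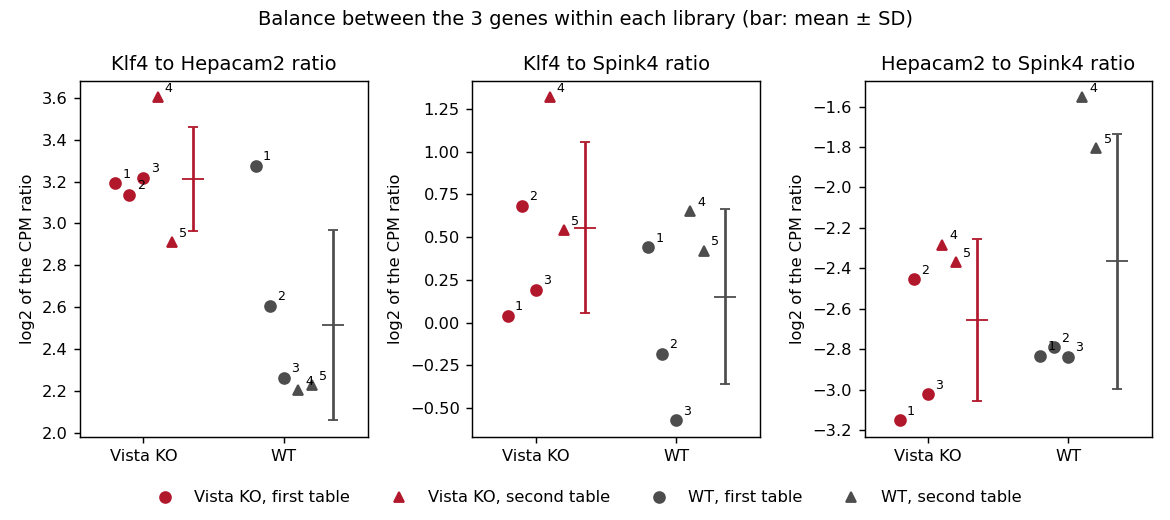
Log2 of the CPM ratio between pairs of the 3 genes in each library, Vista KO left and WT right, with library numbers beside the points and bars for the mean ± SD of 5 libraries. In the Klf4 to Hepacam2 panel the KO points lie between 2.91 and 3.60 and all WT points but WT 1 (3.28) lie at 2.61 or lower. The axes do not start at 0.

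The correlations between the 3 genes over the 10 libraries changed with the libraries included. Pearson's r of log2 CPM was 0.69 for Klf4 and Spink4 (rho 0.50), 0.66 for Spink4 and Hepacam2 (rho 0.16) and 0.35 for Klf4 and Hepacam2 (rho 0.030). Permutation p values for r were 0.0222, 0.0612 and 0.345, or 0.0666, 0.0918 and 0.345 adjusted over the 3 pairs, and for rho they were 0.144, 0.657 and 0.947. These permutations ignored table and genotype, so the p values do not separate a link between genes from differences between tables or genotypes. KO 4 and WT 5 were farthest from the median level of both Klf4 and Spink4, and without them r was 0.13, -0.069 and -0.58. Without KO 4 alone r was 0.48, -0.065 and -0.43. Within the 6 libraries of the first table r was -0.30, 0.696 and -0.55, with exact permutation p values of 0.568, 0.219 and 0.300. The second table holds too few libraries for its own value.

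The rows most like each gene over the 10 libraries, among 349 other protein-coding rows of the windows averaging at least 5 CPM, are given as a description. Klf4 was followed most closely by Casd1, a sialic acid O-acetyltransferase gene (r = 0.85), Ptpn3, a tyrosine phosphatase gene (0.84), and Ncald, a neuronal calcium sensor gene (0.83). Spink4 was followed by Umad1 (0.95), Cadps2, a gene of dense-core vesicle release (0.89), and Cpq, a secreted carboxypeptidase gene (0.88). Hepacam2 was followed by Triqk (0.88), Asph, an aspartate hydroxylase gene of the endoplasmic reticulum (0.87), and Chchd7 (0.85). In each of these 9 rows KO 4 was lower than the other 4 KO libraries. Casd1, for example, was at 347 CPM against at least 546, and Asph at 148 CPM against at least 208. The rows were picked for likeness to genes that were lowest in KO 4, so the choice itself favours a low KO 4. Without KO 4 the 9 values of r ran from 0.63 for Asph to 0.92 for Umad1. Klf4 ranked 14 among the rows most like Spink4, and Hepacam2 ranked 17.

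Of the nearest tested protein-coding genes on each side of each locus, 5 served as positional comparisons. Vps50, 83 bases from Hepacam2, averaged 134 ± 7.22 CPM in KO and 132 ± 8.26 in WT (SD, n = 5 each), and KO 4 had 135 CPM. Samd9l, an antiviral and growth-restraining gene on the other side of Hepacam2, averaged 487 ± 85.6 in KO and 537 ± 71.9 in WT, with 560 in KO 4. Around Klf4, Rad23b, a DNA repair and proteasome shuttle gene 134905 bases away, averaged 810 ± 125 in KO and 644 ± 105 in WT, with 989 in KO 4. None of these 3 was called by edgeR, and none was below the other KO libraries in KO 4.

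The neighbours of Spink4 differed from those. Bag1, a co-chaperone gene 5002 bases away, averaged 640 ± 60.4 CPM in KO and 638 ± 50.3 in WT (SD, n = 5 each) and was not called. B4galt1, a galactosyltransferase gene 66046 bases away, rose in KO, at 1013 ± 260 CPM, where WT libraries averaged 621 ± 140, with a log2 fold change of 0.72 ± 0.14 (SE) and an adjusted p of 0.0163 in edgeR. KO 4 was below the other KO libraries at both, with 559 CPM of Bag1 against at least 598 and 727 CPM of B4galt1 against at least 819, while for Spink4 it had 690 against at least 1795.

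Of 40 listed goblet cell genes, 4 lie in the windows, and of these edgeR called 1, Galnt12, which was lower in KO. Calls in the windows leaned that way, with 6.99% of the 429 tested rows called lower in KO and 1.86% higher, and the counts of the lists below stand against these shares. Galnt12 encodes an enzyme that begins mucin-type O-glycans, and it averaged 353 ± 40.0 CPM in KO against 542 ± 87.2 in WT (SD, n = 5 each), with a log2 fold change of -0.59 ± 0.12 (SE) and an adjusted p of 0.0227. The median log2 fold change of the 4 was -0.27, where that of all 429 window rows tested was -0.03. Of 23 genes of secretory lineage specification, Pax4 and Smo lie in the windows. Pax4, an endocrine lineage factor gene, averaged 3.76 ± 0.653 CPM in KO and 5.53 ± 3.02 in WT, and Smo, the Hedgehog signal transducer gene, 112 ± 15.8 in KO and 90.5 ± 11.98 in WT. Neither was called, with adjusted p values of 0.293 and 0.107 in edgeR.

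Among enteroendocrine genes, Pax4 and Tac1 of 16 lie in the windows. Tac1, the substance P precursor gene, was higher in KO, with 401 ± 241 CPM there and 124 ± 40.0 CPM among WT libraries (SD, n = 5 each, adjusted p 0.00826 in edgeR). KO 4 and KO 5 had only 112 and 173 CPM of Tac1, where WT 4 and WT 5 had 103 and 70.2. Pax4, not called, was lower in KO on average. Which cells made the Tac1 RNA was not tested. Of 14 tuft cell genes only Hepacam2, and of 8 Paneth and deep crypt secretory genes only Spink4, could be used. Of 14 epithelial genes 4 could be used, and Cftr was called lower in KO, at 364 ± 103 against 603 ± 121 CPM, with an adjusted p of 0.0310 in edgeR. Adamts12, a metalloprotease gene, was called lower among the 3 stromal genes, at 5.75 ± 2.00 CPM in KO against 12.8 ± 2.42 in WT, with an adjusted p of 0.0127. None of the 4 tested immune genes or the 3 smooth muscle genes was called. The 2 usable absorptive colonocyte genes, Aqp3 and Aqp7, were too low to test, and Klf4 is the only one of 17 Klf genes in the windows. The rows of the other 36 goblet genes had a median of 62 counts, with 7340 in the row of Muc2 and 5132 in that of Tff3. They are not used, since names there cannot be relied on to identify the transcript.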

How the data were processed

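RNA of whole colon was sequenced on a BGIseq500, per the labels, as single-end 50-base reads for the second table. The values deposited by the authors are raw counts of reads, 1 row per Ensembl identifier. Per the submitters' processing notes, reads were aligned with HISAT2 (2.2.1 for the first table) and counted with featureCounts 2.0.1, and the build is named GRCh38, a human assembly, for the first table and mm10 for the second. Annotation and strand setting are not given in the sources used here. GENCODE M21 (mm10) named 52083 of 55416 identifiers, and the other 3333 rows stayed in totals and tests.

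CPM were computed from column totals. Per-kilobase values used the union of a gene's M21 exons. Counts were tested with edgeR 4.0.16 (R 4.3.3, TMM, filterByExpr, quasi-likelihood test, Benjamini-Hochberg over all tested rows, threshold 0.05). Alternatives were DESeq2 1.42.0, voom in limma 3.58.1, other scalings, no filter, no covariate, Cdh17 alone as epithelial reference, and omitted libraries. Single ratios were tested by exact permutation of genotype within tables. Correlations used 100000 permutations, or all of them within the first table.

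The windows, the 3 genes, the gene lists and the tests were chosen with earlier results of these data known. Named genes were the 3 genes, list members inside the windows, the nearest tested protein-coding gene on each side, of which 1 is not reported here, and the 3 rows most correlated with each gene. Other marker genes are named where edgeR called them, and those of the immune and stromal sums and Cdh17, Esrp1 and Grhl2 to say what a sum or ratio holds.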

Additional observations from a re-analysis of the deposited data

Results flagged for a closer look

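KO 4 stood apart from the other KO libraries in 3 of 18 groups examined for such a library, where 0.9 would be flagged by chance at 1 in 20. The 3 are not separate findings, since all come from KO 4 and share its Klf4 count or its epithelial genes. Klf4 was at 1720 CPM in KO 4, and the gap to the next KO library was 0.842 of the group's range. Relative to the epithelial genes Klf4 was at 1.19 on the log2 scale in KO 4, with a gap of 0.834 of the range. Hepacam2 relative to the epithelial genes was at -2.41 in KO 4, with a gap of 0.751.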

How the results depend on the processing

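No call on Klf4, Spink4 or Hepacam2 was made in the tests as reported, and with the low-count filter kept none was made in the pooled libraries or in either table alone under any alternative run. Without the filter, Hepacam2 over all libraries was called at -0.41. Klf4 and Hepacam2 kept their direction over all libraries under each of 17 alternatives. Spink4 ran from -0.44 to 0.053 with 1 library left out, reversed without KO 4.

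The second table and the interaction rest on single libraries, and leaving libraries out there was added after seeing the data. It leaves 1 library in an arm, assumed to vary like the others. In the second table Klf4 ran from -0.25 to 0.62, Spink4 from -1.02 to 0.62 and Hepacam2 from -1.64 to -0.078 with 1 library left out, and voom gave -0.20 for Spink4. In the interaction Klf4 ran from -0.44 to 0.45 (-0.00053 without the filter), Spink4 from -0.84 to 0.83 and Hepacam2 from -1.37 to 0.21. With 1 library left out, Spink4 relative to the epithelial genes ran from -0.35 to 0.13, Hepacam2 to Spink4 from -0.44 to -0.20, and Klf4 to Hepacam2 from 0.54 to 0.88. Hepacam2 in the second table and the ratios of Hepacam2 to Spink4 and Klf4 to Hepacam2 kept their sign, while the other ranges crossed 0. The cause of the reversals was not tested.

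Rows called over all libraries numbered 548, with 848 by DESeq2 and 1260 without the filter. They numbered 78 without WT 4, WT 5 and the covariate, where table and genotype are mixed, and 226 to 990 with 1 library left out. In the first table they numbered 596, with 1322 without the filter and 158 to 456 with 1 library left out. In the second table they numbered 85, with 439 by DESeq2, 28 by voom, 2 without the filter and 0 to 5 with 1 library left out. For the interaction they numbered 200, with 344 by DESeq2, 717 without the filter and 57 to 484 with 1 library left out.

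No paired analysis was possible because the replicate numbers used here only name libraries in listing order, and the submitters' own library tags differ between KO and WT. Counting error is small for these genes, 1.23% for Klf4, 1.89% for Spink4 and 4.17% for Hepacam2 in the lowest library, so the spread between libraries and their number limit the precision, not depth.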
